A study of Mus musculus with 2 samples.

Results

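The cytochrome P450 genes of the mouse were examined in bladder RNA from adult mice of the C57BL/6J strain. Members were all genes of the deposited expression tables whose symbol is Cyp followed by a family number, a subfamily letter and a member number. There were 94 such genes among 43346 measured Ensembl genes, all 94 annotated as protein coding. P450 genes whose symbols have another form are outside this rule, among them genes with a letter after the member number, such as Cyp3a41a. Of the genes outside it, only Cyp51, Ptgis and Tbxas1 are described, beside the members.

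The study sequenced RNA from whole bladder as 1 group with no treatment, mutant or second tissue. The 2 libraries, stranded and read from both ends, held polyadenylated RNA longer than 200 nucleotides, with ribosomal RNA depleted and spike-in RNA added, and are labelled biological replicates 1 and 2. The mice were 8 weeks old, littermates of both sexes, and both libraries name the same donor entry, so how far the animals differ between the libraries is not given. An SD below is therefore the spread of 2 samples, which may be partly technical, and no comparison of conditions or test was possible.

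P450 enzymes are haem proteins that insert an oxygen atom into fatty acids, sterols, retinoids, steroids and foreign compounds. Most sit in the endoplasmic reticulum and take electrons from P450 oxidoreductase, while a few sit in mitochondria and take them from ferredoxin. Liver holds the most of the drug-metabolising members. The bladder lining is exposed to compounds that the kidney concentrates in urine, among them aromatic compounds that some P450 enzymes activate or clear.

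Of the 94 members, 25 (26.6%) were detected, meaning that they reached 1 TPM, a level scaled for transcript length and library depth, in both libraries. The same rule called 32.7% of all genes and 60.5% of protein-coding genes. A further 7 members had a mean of at least 0.2 TPM without reaching 1 TPM in both libraries, 26 had lower values with at least 1 count, and 36 had 0 counts in both libraries. Library depth was 99367453 and 105057347 expected counts on genes, so that the limit a count of 0 allows (3 counts) was 0.0302 and 0.0286 CPM (counts scaled for depth alone). These limits cover counting error only.

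The family summed to 430.1 and 524.4 TPM in replicates 1 and 2, which was 0.0514% ± 0.00786 (SD, n = 2) of all gene TPM. The most abundant member, Cyp4f15, made up 26.0% ± 4.64 (SD, n = 2) of that sum. The 10 most abundant members made up 80.1% ± 1.18. P450 transcripts in this tissue thus came mostly from a few genes, and 11 members were at or above 10 TPM in both libraries.

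The stretch of coding sequence that carries the haem-binding cysteine is shown for 8 of the expressed members. It shows how alike the listed Cyp4f and Cyp2j genes are at this site only. It does not show how well reads from these genes can be told apart. Sequence shared over whole transcripts is given below, as exact matches only. It was searched in the most used coding transcript (GENCODE M21) of the 19 members with a mean of at least 5 TPM, as 10 codons: phenylalanine, any 2 residues, glycine, any residue, arginine or histidine, any residue, cysteine, any residue and glycine. The cysteine codon is in capitals. The sequences run 5′ to 3′ on the coding strand.
Cyp4f15: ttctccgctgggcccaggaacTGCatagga
Cyp4f13: ttctcagcggggaccaggaacTGCatagga
Cyp4f16: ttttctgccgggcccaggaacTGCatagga
Cyp4f17: ttttctgctgggcctaggaacTGCatagga
Cyp2j6: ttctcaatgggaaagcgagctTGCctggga
Cyp2j9: ttctcaatgggaaaacgtgctTGTcttgga
Cyp27a1: ttcggctatggggttcggtctTGCctgggt
Cyp2e1: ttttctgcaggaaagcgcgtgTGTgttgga

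The stretch was found in 15 of those 19 members. No match was found in Cyp20a1, Cyp2s1, Cyp7b1 or Cyp39a1, which says only that these codons are not in the transcripts searched. In Cyp4f15 the stretch lies at chr17:32702398-32702801 (mm10, plus strand) and is split by the intron before the last exon, exon 13 of 13. In 11 of the 15 members it was split over 2 exons, and in 13 it reached the last exon. Cyp4f16 and Cyp4f17 differed at 2 of 30 bases, and Cyp4f15 differed from each of Cyp4f13, Cyp4f16 and Cyp4f17 at 3. Cyp2j6 and Cyp2j9 differed at 4 bases. The median over all 105 pairs was 13 bases.

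Family 4 held 43.9% ± 4.22 (SD, n = 2) of the P450 transcripts, the highest share of any class, with 8 of 17 members detected. Its enzymes hydroxylate fatty acids and eicosanoids, mostly at the end of the carbon chain. The Cyp4f subfamily alone held 40.3% ± 4.46, with 6 of 9 members detected, and no Cyp4f member was at 0 counts in both libraries. The share to set beside these and the later class counts is the 60.5% of protein-coding genes detected by the same rule. In contrast to Cyp4f, all 5 Cyp4a members had 0 counts in both libraries. Their subfamily encodes fatty acid hydroxylases known from liver and kidney, and any of its genes outside the symbol rule were not examined.

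**Figure D1:**
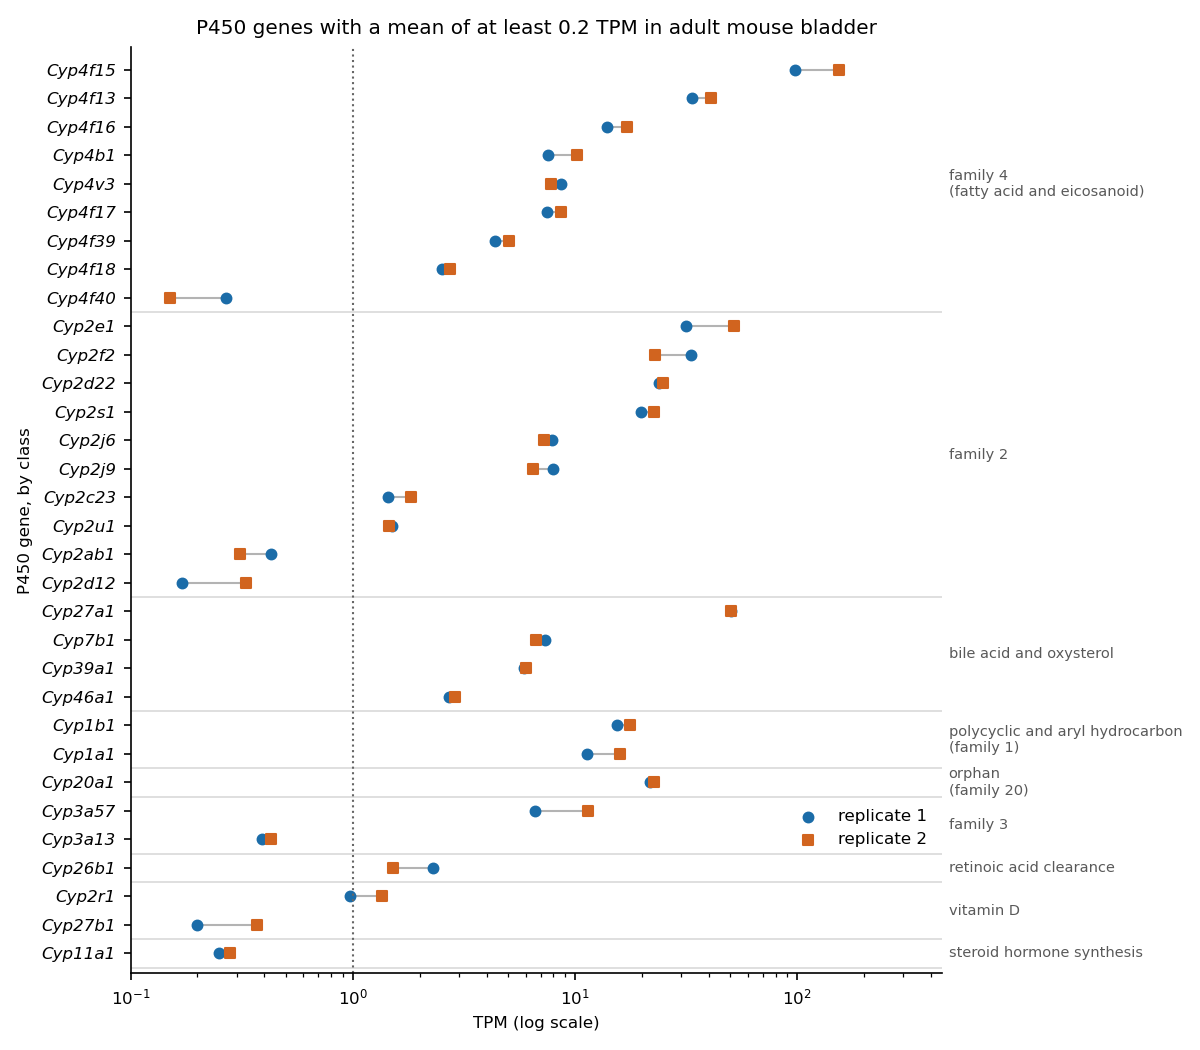
Levels of the 32 P450 genes whose mean reached 0.2 TPM, by class. The horizontal axis is TPM on a log scale, circles are replicate 1, squares are replicate 2, grey lines join the libraries and the dotted line is 1 TPM. Cyp4f15 lies at 97.66 and 153.49 TPM, to the right of every other member in both libraries, and Cyp27a1 at 50.15 and 50.19 TPM.

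Cyp4f15 was at 97.66 TPM in the first library and 153.49 TPM in the second (126 ± 39.5, SD, n = 2). Its gene lies at chr17:32685627-32703352 on the plus strand. Both libraries were above both libraries of every other member. Cyp4f13 was at 33.51 and 40.75 TPM, and Cyp4f16 at 13.97 and 17.15 TPM. Cyp4f17 was at 7.52 and 8.63 TPM. The 4 genes lie in 1 run on chromosome 17. Each was higher in replicate 2 than in replicate 1, as were 61.6% of all detected genes. Cyp4f40 and Cyp4f14 of the same run, both below the detection level, were not.

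Of the other detected Cyp4f genes, Cyp4f39 was at 4.38 and 5.07 TPM. It is the mouse counterpart of a gene needed for the very long fatty acids of the skin barrier. Cyp4f18, an enzyme that inactivates leukotriene B and lies outside the run on chromosome 8, was at 2.52 and 2.73 TPM. The 3 remaining Cyp4f genes were below the detection level: Cyp4f40 was at 0.27 and 0.15 TPM, and Cyp4f14 had 11 counts in each library. Cyp4f37 had 2 and 3.01 counts.

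Outside Cyp4f, the detected family 4 members were Cyp4b1 and Cyp4v3. Cyp4b1, an enzyme known to activate aromatic amines and furans, was at 7.59 and 10.18 TPM. Cyp4v3, the mouse counterpart of a human fatty acid hydroxylase gene tied to a retinal dystrophy, was at 8.63 and 7.81 TPM. The 2 genes had overlapping ranges. Cyp4x1 had 10 and 2 counts.

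Family 2, which holds most of the drug-metabolising and epoxygenase genes, made up 28.3% ± 2.14 (SD, n = 2) of the P450 transcripts. Leaving out Cyp2r1, which is counted below with the vitamin D genes, the class has 48 members, of which 8 were detected and 23 had 0 counts in both libraries. Cyp2e1, which oxidises ethanol and small solvents, was at 31.60 and 51.99 TPM. Cyp2f2, which activates naphthalene in airway club cells, was at 33.13 and 22.91 TPM. The ranges of the 2 genes overlapped, and they differed between the libraries in opposite directions.

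Cyp2d22, the member of its subfamily that is taken as the closest mouse counterpart of the human debrisoquine hydroxylase, was at 23.91 and 25 TPM. The next highest Cyp2d gene was Cyp2d12 at 0.17 and 0.33 TPM, so Cyp2d22 was nearly alone among the 8 Cyp2d genes. Cyp2s1, a member found mainly in epithelia, was at 19.89 and 22.63 TPM. Cyp2j6 (7.87 and 7.29 TPM) and Cyp2j9 (7.94 and 6.49 TPM) were at levels that overlapped, while 5 of the 8 Cyp2j genes had 0 counts in both libraries.

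At the low end of family 2, Cyp2c23, an arachidonic acid epoxygenase, was at 1.44 and 1.82 TPM. It was the sole detected gene of 15 in the Cyp2c subfamily. Cyp2u1, a hydroxylase of long-chain fatty acids, was at 1.5 and 1.46 TPM. Cyp2ab1 was below the detection level at 0.43 and 0.31 TPM. All 4 Cyp2a genes had 0 counts in both libraries, and the 5 Cyp2b genes together had 18 and 23 counts.

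**Figure D2:**
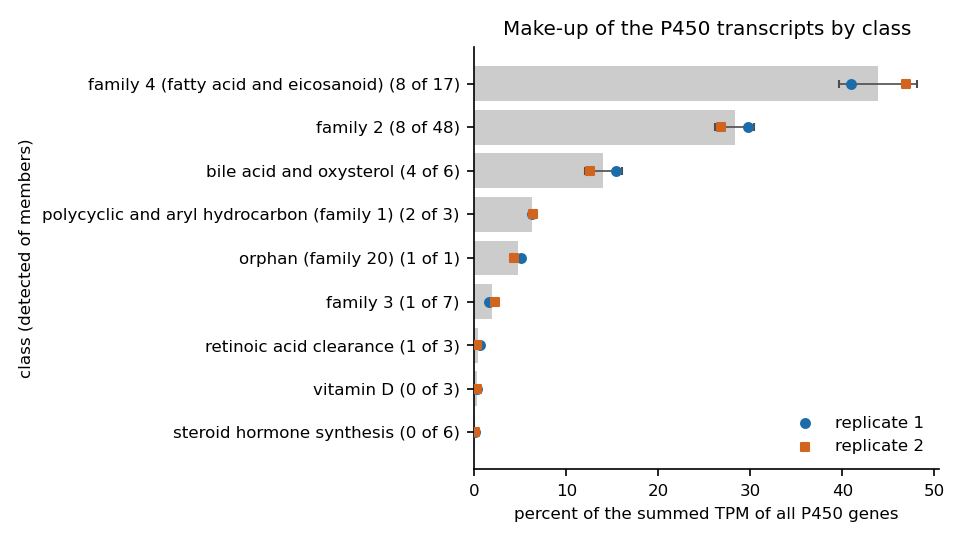
Share of the summed P450 TPM held by each class. Bars are means of the 2 libraries, error bars are SD (n = 2), circles are replicate 1 and squares replicate 2, and the labels give the detected members of each class. Family 4 holds 43.9%, family 2 holds 28.3%, and the bile acid and oxysterol class holds 14.0%, while the vitamin D and steroid hormone classes hold no detected member.

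The enzymes of bile acid and oxysterol metabolism held 14.0% ± 2.00 (SD, n = 2) of the P450 transcripts. Of the 6 members 4 were detected, where 60.5% of protein-coding genes were. The class summed to 66.21 and 65.87 TPM, most of it from Cyp27a1, the mitochondrial enzyme that oxidises the cholesterol side chain, at 50.15 and 50.19 TPM. Its gene lies at chr1:74713574-74737892 on the plus strand. Cyp7b1, which hydroxylates the resulting oxysterols, was at 7.35 and 6.69 TPM. Cyp39a1, which acts on an oxysterol made in brain, was at 5.90 and 6.00 TPM, and Cyp46a1, the enzyme that makes that oxysterol, at 2.72 and 2.88 TPM. The 2 liver enzymes of the class were near or at 0: Cyp8b1 had 12 and 16 counts and Cyp7a1, the rate-limiting enzyme of bile acid synthesis, had 0 in both libraries.

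Family 1, whose genes are the classic targets of the aryl hydrocarbon receptor and metabolise polycyclic compounds, held 6.31% ± 0.142 (SD, n = 2). Cyp1b1 was at 15.39 and 17.71 TPM, and Cyp1a1 at 11.30 and 15.89 TPM. Their ranges overlapped. Cyp1a2, the liver member of the family, had 1 count in each library, although its gene neighbours Cyp1a1 on chromosome 9.

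The remaining classes were small. Cyp20a1, an orphan enzyme with no settled substrate, was at 21.85 and 22.74 TPM and on its own held 4.71% ± 0.526 (SD, n = 2) of the P450 transcripts. In family 3, the class of the main liver drug oxidases, Cyp3a57 was detected at 6.61 and 11.41 TPM, Cyp3a13 was at 0.39 and 0.43 TPM, and the other 5 members had 0 counts in both libraries. Cyp26b1, which breaks down retinoic acid, was at 2.29 and 1.51 TPM and was the sole detected gene of 3 in its class. Cyp26a1 had 7 counts in each library.

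None of the vitamin D and steroid hormone genes was detected. Cyp2r1, a hydroxylase of vitamin D, came closest at 0.97 and 1.35 TPM, and by the authors' posterior mean it passed the level at 1.16 and 1.52 TPM. Cyp27b1, which makes the active hormone, was at 0.20 and 0.37 TPM, and Cyp24a1, which breaks it down, had 0 and 1 counts. Of the 6 steroid hormone genes, Cyp11a1, which cuts the cholesterol side chain, was the highest at 0.25 and 0.28 TPM. Cyp11b1 had 12 and 45 counts, Cyp17a1 had 2 and 0, and Cyp21a1 had 0 and 1. Cyp19a1 (aromatase) and Cyp11b2 (aldosterone synthase) had 0 counts in both libraries.

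Members known chiefly from liver were not uniformly low. Cyp2e1 was the third most abundant member by mean TPM, with a range that overlapped those of Cyp27a1 and Cyp4f13. In contrast, Cyp3a11 and Cyp2c29, both abundant in mouse liver, had 0 counts in both libraries. Hepatocyte transcripts differed among themselves: Alb was at 3.37 and 0.71 TPM, Apoa1 at 0.61 and 0.39 TPM, Apob at 0.06 and 0.01 TPM, and Ttr at 24.38 and 28.26 TPM. In all, 1 of 7 hepatocyte markers was detected in both libraries, where 60.5% of protein-coding genes were. The list summed to 29.91 and 29.5 TPM. Of the 7 markers, Ttr was the only 1 higher in replicate 2. Cyp2e1 was higher there, as were 61.6% of all detected genes. The source of the Cyp2e1 transcripts was not tested.

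In the order of mean TPM, 8 of the 24 neighbouring pairs of detected members had ranges over the 2 libraries that did not overlap. These separated Cyp4f15 from Cyp27a1, Cyp4f13 from Cyp2f2, Cyp2d22 from Cyp20a1, Cyp2s1 from Cyp1b1, Cyp7b1 from Cyp39a1, Cyp39a1 from Cyp4f39, Cyp4f39 from Cyp46a1, and Cyp4f18 from Cyp26b1. The other 16 neighbours were not separated at n = 2. In the authors' separate mm9 quantification, in which all 25 detected members had a value, Cyp4f15 also came first with a mean of 14.9 RPKM, followed by Cyp2e1 at 6.96, Cyp4f13 at 4.17 and Cyp27a1 at 4.08 RPKM. Spearman's rho between the quantifications was 0.97 over these 25 genes, which share the same libraries.

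The P450 genes lie in part as runs of neighbouring duplicates. With gaps of at most 500 kb and at least 4 members, 7 runs held 64 of the 94 members. Genes outside the symbol rule were not counted in the runs. In the runs 12 of 64 members (18.8%) were detected, against 13 of 30 (43.3%) elsewhere, a difference that was not tested. The same rule called 32.7% of all genes and 60.5% of protein-coding genes, so both shares were below that of protein-coding genes. The run of 8 Cyp4f genes on chromosome 17 (chr17:32452723-32947402) had 5 detected members. The run of 14 Cyp2c genes on chromosome 19 (chr19:39007019-40187333) had none, and 9 of its genes had 0 counts in both libraries.

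Within the other 5 runs, 1 or 2 genes were detected among neighbours below the detection level. The run of 13 genes on chromosome 7 held Cyp2s1 and Cyp2f2 near its ends, and between them the Cyp2a and Cyp2b genes reached at most 0.12 TPM. In the Cyp2d run of 8 genes on chromosome 15, Cyp2d22 at 1 end was detected. In the run of 6 Cyp3a members on chromosome 5, Cyp3a57 at 1 end was detected and the 5 others had 0 counts. Cyp4b1 at 1 end of a run of 7 members on chromosome 4 was detected beside the 5 Cyp4a members with 0 counts.

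**Figure D3:**
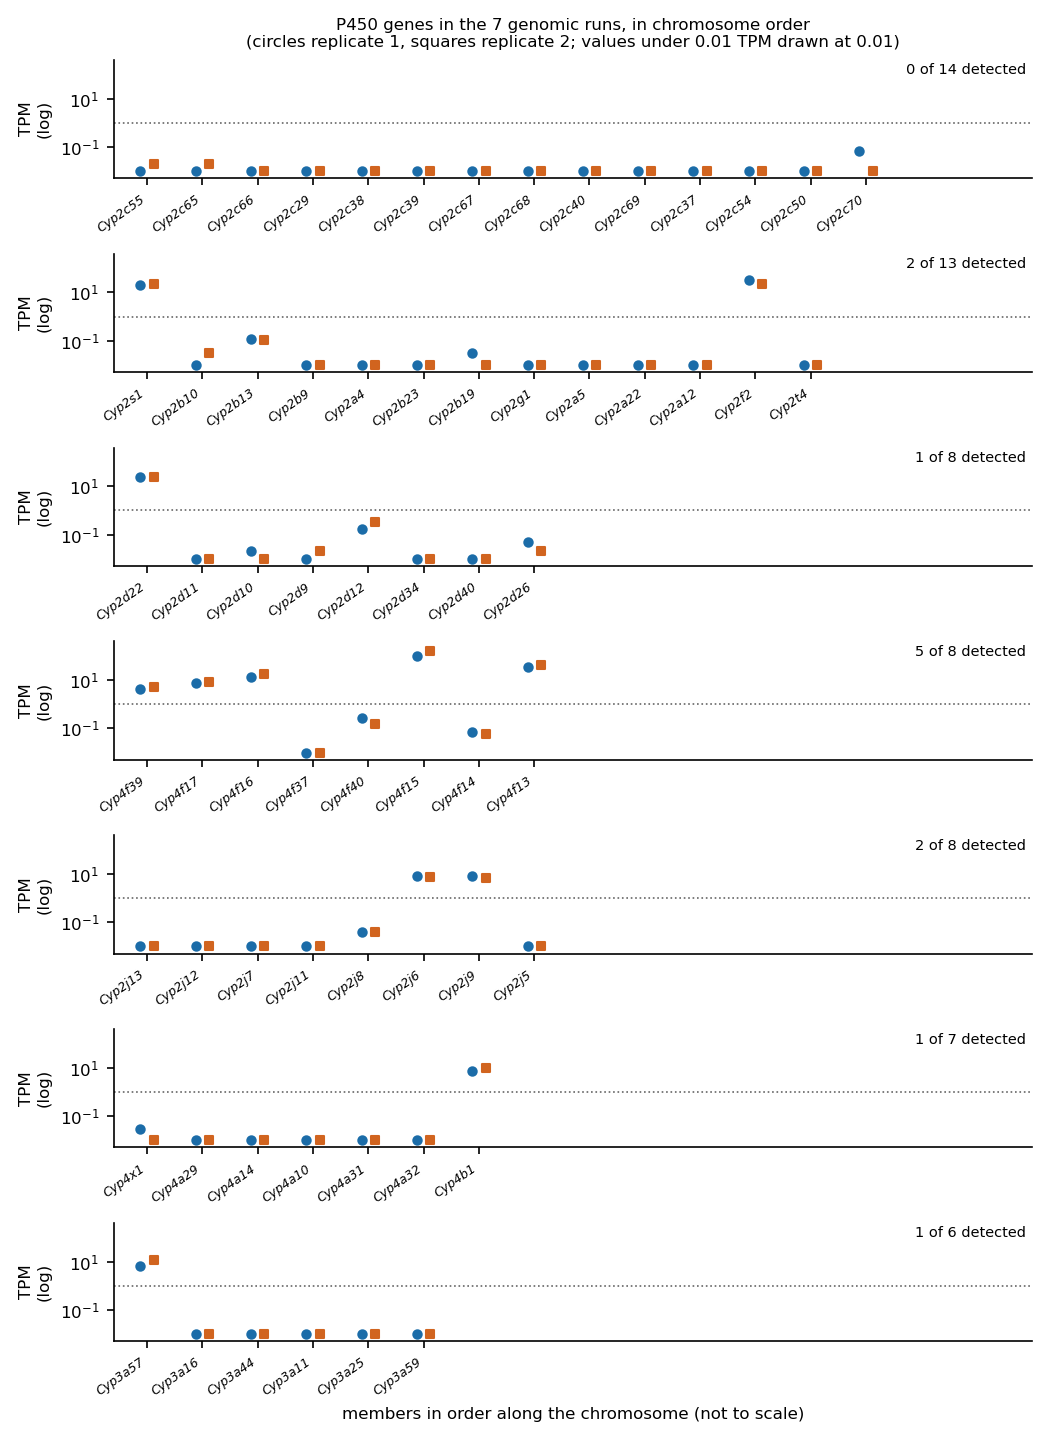
TPM of the 64 members in the 7 runs, in their order along the chromosome. Each panel is 1 run, the vertical axis is TPM on a log scale with values under 0.01 TPM drawn at 0.01, circles are replicate 1, squares are replicate 2, and the dotted line is 1 TPM. The Cyp4f run has 5 of 8 genes above the line, the Cyp2c run 0 of 14, and the other runs 1 or 2 genes each.

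Duplicates that share long identical stretches cannot be told apart by reads that fall there. Of all runs of 100 bases in the transcripts of each detected member, at most 6.22% also occurred in another gene's transcripts, and 17 of 25 detected members had none. Only exact matches were counted, so stretches that are nearly identical do not enter. Low shares therefore do not show how well reads were placed. The highest shares were 6.22% in Cyp4f16 (nearly all with Cyp4f37) and 5.77% in Cyp4v3 (with Gm45753). Cyp4b1 shared 3.40% with its pseudogenes. Among the 36 members with 0 counts the median was 3.54% and the highest 36.3%, while 11 of them shared none. One member with no shared stretch, Cyp7a1, had a posterior mean of 0.41 and 0.56 TPM in the authors' tables while its counts were 0.

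Between the libraries, 18 of the 25 detected members were higher in replicate 2 and 7 were lower, where 61.6% of all detected genes were higher. With TMM scaling of the expected counts the split was 14 higher and 11 lower, and 52.2% of all detected genes were higher. The median log2 ratio of the 25 members (replicate 2 over replicate 1, with 0.5 TPM added) was 0.097, beside 0.083 over all 14191 detected genes. None of these 25 was 2-fold apart in either direction, where the same rule called 0.331% of detected genes as higher in replicate 2 and 0.824% as lower. This describes 1 library a side and has no replicate check.

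The members with the largest log2 ratios were Cyp3a57 (0.74), Cyp2e1 (0.71), Cyp4f15 (0.65) and Cyp1a1 (0.47). At the other end were Cyp2f2 (-0.52), Cyp26b1 (-0.47) and Cyp2j9 (-0.27). Cyp27a1 (0.00), Cyp39a1 (0.02) and Cyp2u1 (-0.03) were the closest to equal, followed by Cyp20a1 (0.06) and Cyp2d22 (0.06). Spearman's rho between a member's transcript length and its ratio was -0.43 over 25 members, and -0.36 over all detected genes. Shorter transcripts thus tended to be higher in replicate 2, inside the family as over all genes, and the part of length in the members' ratios was not tested.

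Cell type markers also differed between the libraries, some of them little. Of all detected genes 61.6% were higher in replicate 2, with a median log2 ratio of 0.083. All 7 markers of the superficial urothelium, the cells that face the urine, were higher in replicate 2, with a sum of 4717 and 6771 TPM. All 4 adipocyte markers were higher there, with a sum of 55.06 and 130.6 TPM. All 5 smooth muscle markers (25590 and 23380 TPM) and all 4 endothelial markers (117.1 and 85.03 TPM) were lower. All 4 macrophage markers were higher in replicate 2 (451.5 and 492.6 TPM), and of the 5 fibroblast markers 2 were higher (5197 and 5091 TPM). Basal urothelial markers summed to 876 and 874.8 TPM, with 2 of 3 higher in replicate 2. The median log2 ratio was 1.27 for adipocyte, 0.529 for superficial urothelial, 0.143 for macrophage and 0.0119 for basal urothelial markers. It was -0.43 for endothelial, -0.171 for fibroblast and -0.0903 for smooth muscle markers. Smooth muscle markers ran from -0.852 (Myh11) to -0.00968 (Tagln). In whole tissue, fewer cells of a type and less RNA per cell cannot be told apart, and the part of these markers in the P450 ratios was not tested.

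Of the kidney, male accessory gland, adrenal and gonadal markers, from organs that could have been dissected with the bladder, only Insl3 was detected in both libraries. Umod, Kap and Slc12a1 of the kidney tubule had 0 counts, and the 5 kidney markers summed to 0.26 and 0.23 TPM. The 5 male accessory gland markers summed to 0.30 and 0.21 TPM. The 3 adrenal markers summed to 1.11 and 1.03 TPM, most of it from Star at 1.03 and 0.94 TPM. Among gonadal markers Insl3 was at 8.17 and 5.75 TPM and Amh at 0.27 and 0.47 TPM, while Fshr had 0 counts and Lhcgr 2 and 0. The source of the Insl3 reads was not tested.

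**Figure D4:**
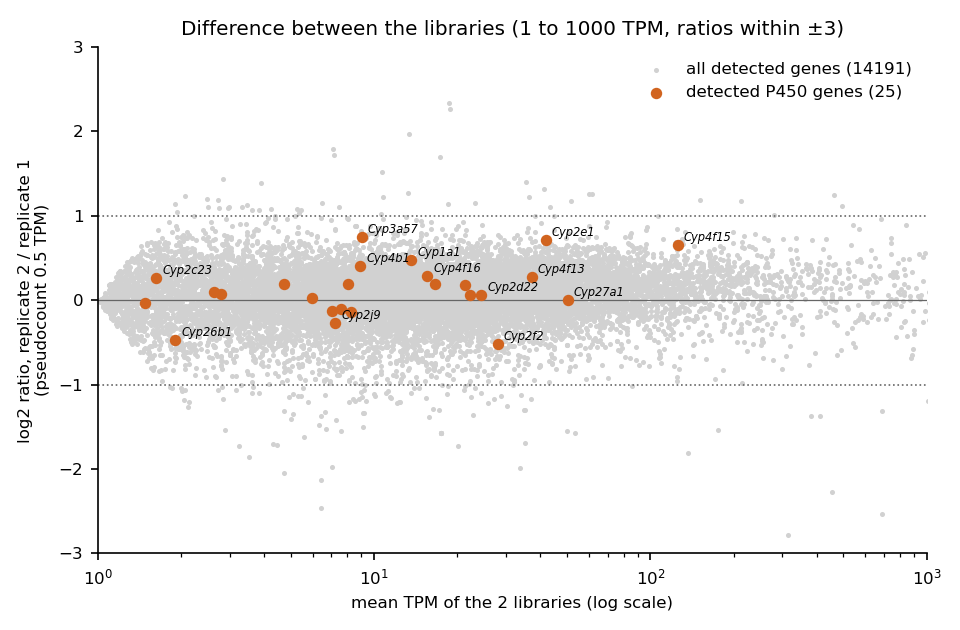
Difference between the libraries against mean level. The vertical axis is the log2 ratio of replicate 2 over replicate 1 with 0.5 TPM added, the horizontal axis is mean TPM on a log scale, grey points are detected genes and orange points the 25 detected P450 genes, and dotted lines mark 2-fold. The axes leave out 113 detected genes, none of them a P450 gene. The P450 genes lie between -0.52 (Cyp2f2) and 0.74 (Cyp3a57), inside the 2-fold lines.

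Transcript models of the same gene shared its TPM unevenly. Of the 25 detected members, 12 had 1 quantified transcript and 13 had more. Coding transcripts made up 49.8% ± 3.76 (SD, n = 2) of the TPM of Cyp27a1, 53.3% ± 5.93 for Cyp4f16, 66.7% ± 6.96 for Cyp20a1 and 68.7% ± 2.01 for Cyp4f13. The others were annotated as retaining an intron, as targets of nonsense-mediated decay or as processed transcripts. In Cyp27a1 the retained-intron forms Cyp27a1-203 (645 bases) and Cyp27a1-202 (784 bases) held 35.8% ± 1.87 and 14.4% ± 1.88 of the TPM.

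Because TPM divides by length, these short forms weigh less in counts. By expected counts the coding share of Cyp27a1 was 77.7% and that of Cyp4f16 75.6%. Restricted to coding transcripts, Cyp27a1 was at 26.3 and 23.6 TPM, and Cyp4f13 at 23.5 and 27.4 TPM, so that their ranges overlapped. Cyp4f15 stayed first, with 90.7 and 131 coding TPM and a coding share of 89.1% ± 5.30.

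The leading coding form held 80.2% ± 5.40 of Cyp4f15 (Cyp4f15-201), 80.2% ± 3.12 of Cyp2s1 (Cyp2s1-201) and 76.7% ± 1.14 of Cyp4b1 (Cyp4b1-201). Retained-intron forms held 13.6% ± 1.32 of Cyp2s1 (Cyp2s1-203) and 15.9% ± 0.183 of Cyp4b1 (Cyp4b1-203). The retained-intron form Cyp4f15-203 was at 6.99 and 21.86 TPM, a share of 7.16% and 14.2%. Cyp4f16 was the most divided, with Cyp4f16-201 at 40.3% ± 0.866, Cyp4f16-206 (a retained intron) at 14.6% ± 1.51 and the coding form Cyp4f16-208 at 13.0% ± 5.07. A decay target, Cyp3a57-202, held 25.6% ± 2.65 of Cyp3a57. Of Cyp20a1, the retained-intron form Cyp20a1-202 held 16.7% ± 9.25 and the decay target Cyp20a1-203 16.6% ± 2.30. In Cyp4f13, Cyp4f13-201 held 55.3% ± 1.52, Cyp4f13-202 (a retained intron) 15.4% ± 1.65 and Cyp4f13-204 (coding) 13.4% ± 3.53.

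**Figure D5:**
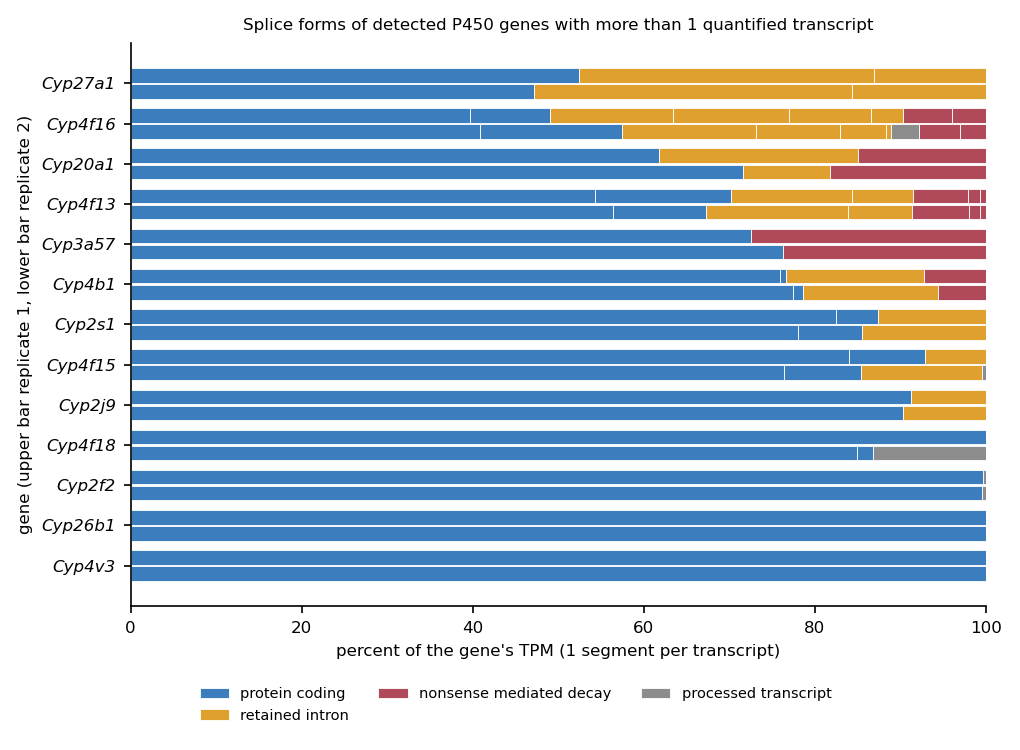
Share of each gene's TPM by transcript for the 13 detected members with more than 1 quantified transcript. The upper bar of each pair is replicate 1 and the lower replicate 2, and colours give the annotated kind of transcript. Coding forms fill 49.8% of Cyp27a1 and 53.3% of Cyp4f16 on average, and all of Cyp26b1 and Cyp4v3.

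Spliced reads were deposited as 1 table on mm9, summed over both libraries by the authors. Of 260 annotated introns in the 25 detected members, 248 had at least 1 read and 239 at least 10. Cyp4f15 alone had 35227 of the 102511 reads on annotated junctions of these members. Reads on junctions inside these genes but absent from the annotation numbered 3461 (3.27%). The share was highest in Cyp2d22 (17.9%), where the leading new junction (chr15:82204486-82204726, mm9) had 455 reads. The leading new junction of Cyp4f13 (chr17:33083948-33084256) had 526.

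A second group of junctions joined 2 different members. There were 166 of them with 2441 reads over 42 pairs of genes, and 93.2% of these reads lay on junctions with both ends at annotated splice sites. The pair Cyp4f16 and Cyp4f37 had 1000 of the reads over 23 junctions. Its leading junction (chr17:32679950-32765979, mm9) had 298 reads. Next were Cyp4f17 with Cyp4f16 (529 reads), and Cyp2d22 with Cyp2d26 (266 reads), in both cases duplicates in the same run.

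The partners were unequal in level. Cyp4f37 had 2 and 3.01 expected counts on mm10 but 276 reads on its annotated mm9 junctions, and shared 8.15% of its runs of 100 bases with Cyp4f16. Cyp2d26 had 6 and 3 expected counts and 7 annotated junction reads, and shared 0.375% with Cyp2d22. The origin of the reads that join 2 genes was not tested. Of 35 members with 0 counts that had an mm9 gene, 5 had a read on an annotated junction, 7 reads in all.

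Transcripts of proteins that serve P450 enzymes were also measured. Of 9 genes for electron donors and related proteins, 9 were detected, where 60.5% of protein-coding genes were. Cyb5a, a cytochrome that passes electrons to some P450 enzymes, was the highest at 539.65 and 763.39 TPM, followed by Pgrmc1, a haem-binding partner protein, at 168.49 and 213.91 TPM. Cyb5r3, the reductase of the cytochrome that Cyb5a encodes, was at 128.71 and 97.02 TPM. Por, the oxidoreductase of the endoplasmic reticulum, was at 102.14 and 106.35 TPM, and the mitochondrial ferredoxin Fdx1, the donor type that Cyp27a1 uses, at 36.67 and 48.20 TPM.

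All 10 genes of haem synthesis and breakdown were detected, where 60.5% of protein-coding genes were. The highest were Ppox (63.68 and 102.35 TPM), Urod (49.93 and 56.68 TPM) and Alas1, the rate-limiting step of haem synthesis (42.25 and 44.99 TPM). Of 4 epoxide hydrolases, which open the epoxides that P450 enzymes form, 3 were detected, beside the same 60.5%. Ephx1 was at 129.17 and 119.68 TPM and Ephx2 at 9.65 and 12.73 TPM. Ephx3 was at 3.09 and 2.72 TPM, and Ephx4 was below the detection level at 0.28 and 0.53 TPM.

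Of 17 transcription factors known to control P450 genes, 13 were detected, where 60.5% of protein-coding genes were. The highest were Nfe2l2 (149.33 and 192.21 TPM), Nr1h2 (74.24 and 67.14 TPM) and Pparg (55.09 and 69.66 TPM). The 2 main drug-sensing receptors of liver were near 0: Nr1i2 (the pregnane X receptor) had 1 and 4 counts, and Nr1i3 (the constitutive androstane receptor) had 2 and 6. Hnf4a was at 0.15 and 0.37 TPM, and Vdr, the vitamin D receptor, at 1.12 and 0.99 TPM. The aryl hydrocarbon receptor Ahr, whose targets include Cyp1a1 and Cyp1b1, was at 17.58 and 18.88 TPM.

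The 3 listed P450 enzymes with other symbols were all detected, where 60.5% of protein-coding genes were. Other P450 genes outside the symbol rule were not listed. Ptgis, which makes prostacyclin, was at 74.81 and 74.17 TPM, a level that among the members only Cyp4f15 exceeded. Cyp51, of cholesterol synthesis, was at 9.30 and 12.35 TPM, and Tbxas1, which makes thromboxane, at 3.63 and 3.82 TPM.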

How the data were processed

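The gene and transcript tables deposited by the authors for each library use mm10 and GENCODE M4, per the notes deposited beside them. Their values are expected counts and TPM, per the file headers, with TPM given by maximum likelihood (used here) and also as a posterior mean. The authors also deposited mm9 RPKM for Ensembl genes (release 65), 2 values per gene that no label ties to a replicate, so their mean was used, and a table of junction read counts summed over libraries. Neither aligner nor counting tool is given in the sources used here.

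Rows other than Ensembl genes (5.01% and 5.98% of expected counts) were left out. Symbols, positions and transcript types come from GENCODE M21 (mm10), matched by identifier without version for 42462 genes, and sequences from its transcripts. Protein sequences were not used here. A gene was called detected at 1 TPM in both libraries. Log2 ratios add 0.5 TPM, which understates ratios of low genes. With 1 group of 2 libraries no test was made. The script for the 2-fold rule was checked on simulated counts with known fold changes. TMM factors come from edgeR 4.0.16 and size factors from DESeq2 1.42.0 in R 4.3.3, on expected counts rounded to whole numbers. Other steps used Python 3.11.15 with pandas 2.3.3 and numpy 2.4.6. The members and lists were chosen with earlier results of these data known. Named are all detected members, those with a mean of at least 0.2 TPM, markers of other organs, transcripts with at least 10% of a member's TPM, and of the other lists the 3 highest genes and those under 1 TPM. Ahr, Fdx1 and Por, the junctions and gene pairs, and members with few counts outside this rule, were chosen after their values were seen. Alternatives were other detection levels, scalings and pseudocounts, the posterior mean TPM, the mm9 RPKM, and each library alone.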

Additional observations from a re-analysis of the deposited data

How the results depend on the processing

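The number of detected members was 25 and ran from 19 (5 TPM, or 1 RPKM on mm9) to 36 (10 expected counts), within 1.5 times in each of 7 alternatives. With the posterior mean TPM it was 26, Cyp2r1 being the added member. The share of gene TPM held by the family (0.0514%) was 0.0712% as a share of expected counts and 0.0611% without the mitochondrially encoded genes, which removes genes from the denominator. It was 0.0458% and 0.0569% in the single libraries. The share of Cyp4f15 in the family stayed between 22.7% and 29.3%. No detected member was 2-fold apart under 6 alternatives, nor any member without the filter, where the 0.5 TPM added keeps members near 0 from reaching 2-fold (Cyp11b1 had 12 and 45 counts). The median log2 ratio of the detected members was 0.23 with CPM, where all detected genes had 0.13, and the cause was not tested. With TMM it was 0.11 beside 0.014 for all detected genes. The posterior mean TPM moved the levels of 3 of 32 members by more than the SD of the libraries: Cyp27a1 to 49.87, Cyp2ab1 to 0.615 and Cyp11a1 to 0.355 TPM. It moved the leading transcript share of 5 of 13 members. No paired analysis was possible because there is 1 group. Depth limits the members under 10 counts, and n = 2 limits every SD.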
